A study of Mus musculus with 9 samples.

Results

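RNA sequencing libraries of one spleen cell population fell into a shallower and a deeper set that cut across genotype, and the gene expression of these sets was compared. The shallower set held 4 of the 9 libraries: replicate 2 of each genotype and, of the wildtype, replicate 1 too. The other 5, wildtype replicate 3, heterozygous replicates 1 and 3 and knockout replicates 1 and 3, made up the deeper set. The sets were chosen on measured values, since the 4 libraries had fewer reads and a larger share of adult globin RNA. Every difference between them is therefore given as a description, with no test. Genes were kept where at least 3 of the 9 libraries had at least 1 FPKM (fragments per kilobase of gene, here scaled by a size factor per library), which left 9543 of 20368 genes.

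The cells were CD71+Ter119+ splenocytes from 4-week-old mice of the C57BL/6 strain, which the submitters call erythroblast population II. CD71 is the transferrin receptor, and Ter119 is an antigen carried by erythroid cells from the erythroblast stage onward. The groups were Wildtype, Dhh+/- (called heterozygous here) and Dhh-/- (called knockout here), with 3 libraries each. Dhh encodes Desert hedgehog, a secreted ligand of the Hedgehog pathway. Nothing in the labels ties a library to a single mouse, litter, batch, day or sex, so the p-values measure how far these libraries spread, which may be technical.

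As erythroblasts mature, they stop dividing, fill with hemoglobin and dismantle their nucleus and organelles. Heme is made by a chain of enzymes that begins with Alas2 in erythroid cells, and it is joined to alpha and beta globin chains. Autophagy and ubiquitin-dependent degradation remove mitochondria, ribosomes and other proteins on the way to the reticulocyte. In the spleen, erythroblasts develop around macrophages and lie among B cells, T cells and other leukocytes.

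Reads recovered from the deposited values ran from 7.05 to 9.66 M per library in the shallower set and from 13.05 to 14.23 M in the deeper set. The libraries closest to the divide were wildtype replicate 2 at 9.66 M and knockout replicate 3 at 13.05 M. The share of the summed FPKM that fell on the 4 adult globin genes was 4.14% to 5.06% in the shallower set and 2.52% to 2.86% in the deeper set. The 50 most abundant genes of a library took 18.4% to 19.7% of its reads in the shallower set and 15.2% to 16.8% in the deeper set. The number of genes with a read was 12723 to 12940 in the shallower libraries, 12231 in wildtype replicate 3 and 12943 to 13226 in the other 4 deeper ones. At a common depth of 7052111 reads, 12652 to 12822 genes per shallower library and 11786 to 12792 per deeper library were expected to have a read. Erythroid genes were present in every library, with Tfrc, the gene of CD71, at 351 to 596 FPKM and Slc4a1, the anion exchanger of the red cell membrane, at 2899 to 3689 FPKM.

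**Figure D1:**
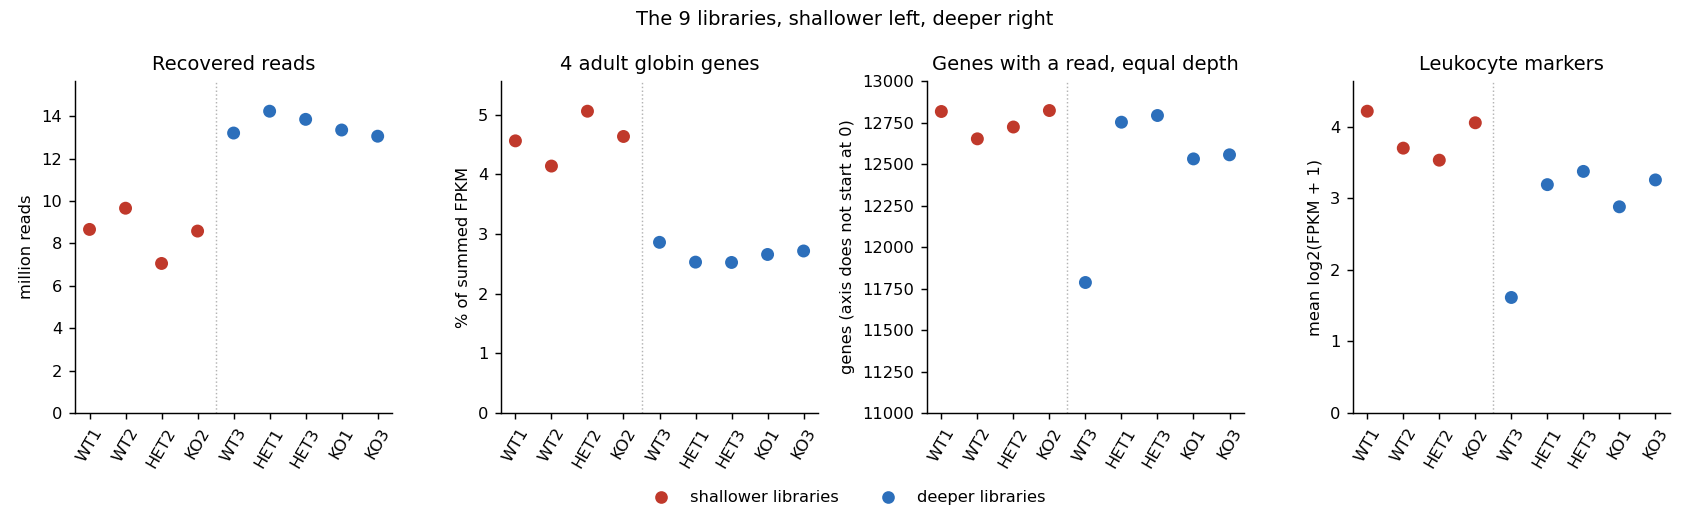
Each point is 1 library, with the 4 shallower libraries at left and the 5 deeper ones at right (WT wildtype, HET heterozygous, KO knockout, then the replicate number). The panels give recovered reads, the share of the 4 adult globin genes, the genes with a read expected at 7052111 reads (on an axis that does not start at 0), and the mean log2(FPKM + 1) of 99 leukocyte markers, where wildtype replicate 3 lies lowest at 1.61.

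Some libraries also stood apart in measures other than their depth. The mean log2(FPKM + 1) of 99 leukocyte markers was 1.61 in wildtype replicate 3, 2.88 to 3.38 in the other 4 deeper libraries and 3.53 to 4.22 in the shallower ones. It thus moved with the sets, and its part in the differences below was not tested. Knockout replicate 2 had 0.41 FPKM of Ddx3y, 0.60 of Eif2s3y, 0.20 of Uty and 0 of Kdm5d, all genes of the Y chromosome. In the other 8 libraries Ddx3y ran from 15.6 to 26.6 FPKM and Eif2s3y from 40.0 to 67.1 FPKM. Within the wildtype, the deeper set consists of replicate 3 alone, and within the knockout, the shallower set consists of replicate 2 alone, so these features cannot be told apart from depth there. All libraries numbered 2 were shallower and all numbered 3 deeper, so the sets also nearly follow the replicate number. Dhh had a value in heterozygous replicate 1 alone (0.0267 FPKM) and was listed at 0 in the other 8, so its level gave no check of the genotype labels.

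Of the 9543 genes, 540 (5.66%) were higher in all 4 shallower libraries than in any of the 5 deeper ones, and 655 (6.86%) were lower in all of them. With libraries scaled to their total recovered reads instead, 371 genes were higher and 1082 lower. Differences below are shallower minus deeper on the log2(FPKM + 1) scale, fitted with a term for genotype and given with their standard error (n = 4 and 5). The higher genes had a median difference of 0.71, the lower ones a median of -0.35, and all genes kept a median of -0.05. The lower genes differed little in size, since the most negative of them stood at -0.79. When a fold of at least 1.5 was also required, 299 higher and 10 lower genes were left. Leaving out a library can only relax this rule. Without wildtype replicate 3, 609 genes were higher and 696 lower, and without knockout replicate 2 the counts were 572 and 730. They were 848 and 1079 without wildtype replicate 2 and 862 and 1002 without heterozygous replicate 1. Without heterozygous replicate 2 there were 773 and 970, and without heterozygous replicate 3 there were 715 and 1004.

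The level of a gene went with the direction. In the lowest of 4 equal bins by mean level (0.657 to 3.25 FPKM), 10.7% were higher and 0.754% lower in every shallower library. Genes near 1 FPKM may have been kept only through the set where they were high. Each shallower library had 9261 to 9553 genes at 1 FPKM or more, and each deeper one had 8235 to 9260. The part of the filter in the shares of this bin was not tested. In the highest bin, from 29.6 FPKM, 3.77% were higher and 14.9% lower. From the shortest to the longest of such bins by exon length, 4.40%, 5.37%, 6.18% and 6.80% were higher, 5.20%, 7.44%, 8.25% and 6.72% were lower, and the median differences were -0.05, -0.04, -0.06 and -0.07.

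The 4 adult globin genes were higher in every shallower library. Hbb-bs, the most abundant beta globin gene (chr7:103826534-103828096, minus strand, build mm10), had 8711 FPKM in wildtype replicate 1, 7642 in wildtype replicate 2, 8985 in heterozygous replicate 2 and 8129 in knockout replicate 2. In wildtype replicate 3, heterozygous replicates 1 and 3 and knockout replicates 1 and 3 it had 5453, 4022, 4212, 4646 and 5118 FPKM. The sets did not overlap, and the difference was 0.81 ± 0.12. The values of the other libraries below are given in this same order, 4 shallower and then 5 deeper. The adult genes Hbb-bt, Hba-a1 and Hba-a2 had differences of 0.86, 0.78 and 0.86, but each is a near copy of another globin gene with which reads may be shared. Since the globin share helped to choose the sets, these values restate the choice. The embryonic globins Hbb-y and Hba-x stayed at 1.02 to 3.09 FPKM in all libraries, with overlapping sets.

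Of 14 genes of heme synthesis, 2 were higher in every shallower library and 2 were lower (14.3% each). In the highest level bin of all genes, 3.77% were higher and 14.9% lower. The list's median difference was -0.16 (-0.03 without knockout replicate 2). Alas2, which encodes the enzyme of the first step (chrX:150547375-150570638), had 7090, 6379, 7458 and 6811 FPKM in the shallower libraries against 4069, 2884, 2994, 3284 and 3523 in the deeper ones. Its difference was 1.02 ± 0.12, with the sets far apart. Fech, for the enzyme that inserts iron into the ring, differed by 0.46 ± 0.10 with 1451 to 1643 FPKM against 973 to 1201. Alad, for the second step, went the other way, with 644, 736, 664 and 647 FPKM against 923, 774, 740, 801 and 904. Clpx, a subunit of the mitochondrial protease that activates and turns over Alas proteins, was also lower (-0.45 ± 0.09). The enzymes of the first and last steps were higher and that of the second step was lower in the same libraries. The scale bears on this list: under quantile normalization none of the 14 was higher in every shallower library and 6 were lower.

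Genes of late maturation were split. Of 28 kept, 11 were higher (39.3%) and 2 lower (7.14%) in every shallower library, and the list's median was 0.13. For comparison, 5.66% of all 9543 genes kept were higher and 6.86% lower. That median was 0.01 without wildtype replicate 3 and 0.31 without knockout replicate 2. The 11 had differences of 0.31 to 1.40. Bpgm, which makes the red cell's modulator of oxygen affinity (chr6:34476207-34505613), had 2044, 1877, 2251 and 1971 FPKM against 998, 624, 652, 778 and 710. Its difference of 1.40 ± 0.14 was the highest of the list. The lowest was as large in size, at -1.40, in a member whose sets overlapped. Gabarapl2, an autophagy protein of the Atg8 family, had 595, 557, 528 and 607 FPKM against 315, 226, 257, 284 and 296. Map1lc3b, of the same family, differed by 0.63 ± 0.08, and Bnip3l, the receptor that targets mitochondria for removal in reticulocytes, by 0.87 ± 0.11. Ube2o, a ubiquitin-conjugating enzyme that clears ribosomes in reticulocytes, differed by 0.76 ± 0.12. Ube2l6 differed by 0.99 ± 0.11, Rnf10 by 0.81 ± 0.10, Riok3 by 0.80 ± 0.08 and Slc25a39, a mitochondrial glutathione carrier, by 1.00 ± 0.10. Other late genes did not separate the sets. Xpo7 and Trim58 had overlapping values, and Nprl3 and Rnf123 were the 2 lower in every shallower library, at -0.36 ± 0.10 and -0.20 ± 0.09.

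**Figure D2:**
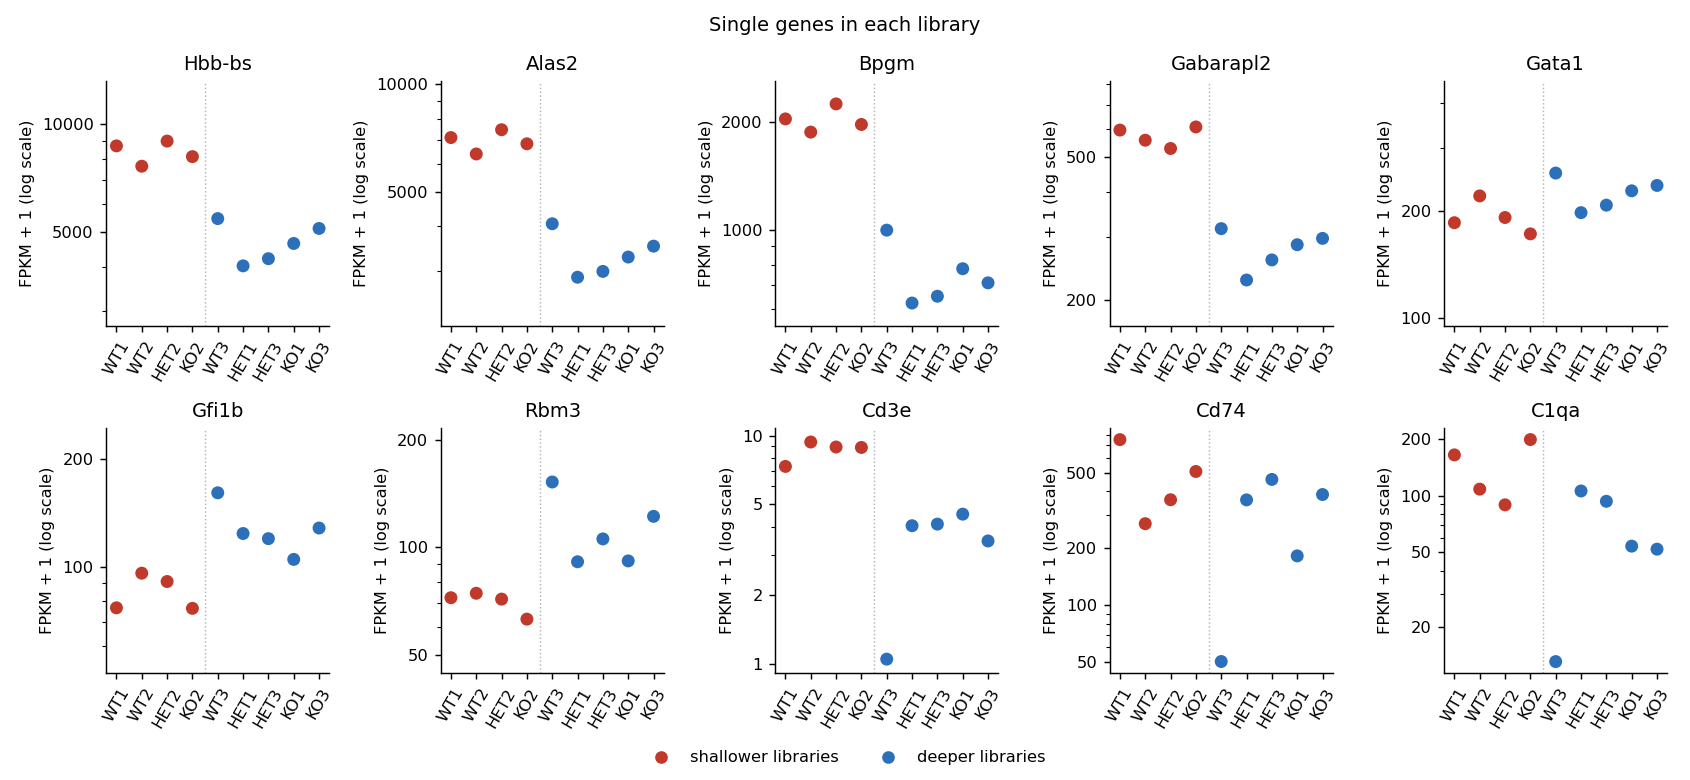
Each point is 1 library's FPKM + 1 on a log axis, with the 4 shallower libraries at left of the dotted line. Hbb-bs, Alas2, Bpgm and Gabarapl2 lie above, and Gfi1b and Rbm3 below, all deeper libraries; Cd74 and C1qa overlap, and Cd3e is close to 0 in wildtype replicate 3.

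Among the 781 genes with a mean of at least 100 FPKM, 68 were higher and 97 lower in every shallower library. Of all 9543 genes kept, 540 (5.66%) were higher and 655 (6.86%) lower. The 68 had median differences of 0.63 within the wildtype, 0.75 within the heterozygous and 0.53 within the knockout libraries. Their selection fixed a positive sign in each genotype, so these medians give sizes only. Mkrn1, a ubiquitin ligase gene that was singled out after its values were seen, had 1479, 1480, 1667 and 1511 FPKM against 747, 649, 707, 778 and 788. Polyubiquitin Ubb had 1229, 1115, 1127 and 1180 FPKM against 744, 556, 531, 669 and 691, a difference of 0.83 ± 0.09. Adipor1, Ccndbp1 and Iscu, the last a scaffold for iron-sulfur clusters, differed by 0.88 ± 0.08, 0.96 ± 0.09 and 0.98 ± 0.10. For iron storage, Ftl1, the ferritin light chain, had 1858, 1935, 2212 and 2299 FPKM against 1328, 1249, 1243, 1241 and 1327. Fth1, the heavy chain, differed by 0.19 ± 0.09 and turned to -0.18 under quantile normalization. These were the 2 of 15 iron genes whose sets did not overlap. The antioxidant enzymes Cat and Gpx1 were higher (0.60 ± 0.10 and 0.53 ± 0.10), whereas Nqo1, Gclc, Sod1 and Txnrd1 were lower, out of 19 kept.

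Of the gene lists examined, that of the G2 phase and mitosis had the largest share of members lower in every shallower library. Of its 36 genes, 16 were lower (44.4%) and 1 was higher, with a median of -0.35. The share lower was 6.86% among all genes kept and 14.9% in their highest level bin. With scaling to total recovered reads, 26 were lower, and without wildtype replicate 2, 25 were. Aurka, a mitotic kinase, had 107, 117, 107 and 97.6 FPKM against 167, 129, 128, 130 and 144. Mad2l1, of the spindle checkpoint, had 57.3, 63.2, 57.1 and 59.6 FPKM against 96.1, 68.4, 69.7, 77.6 and 86.0. Cdc20, Bub1, Kif23, Espl1 and Tacc3 had differences of -0.37 to -0.44. Pttg1, which encodes securin (chr11:43420250-43426251), was the exception, with 145, 138, 130 and 139 FPKM against 74.2, 56.4, 59.4, 71.9 and 70.5. It was the sole member above, and its difference was 1.01 ± 0.08. Mki67, a general marker of cycling cells, had overlapping sets (-0.16 ± 0.10).

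Of 38 genes of the G1/S transition and DNA replication, 7 were lower in every shallower library (18.4%) and none was higher. In the highest level bin of all genes, 14.9% were lower. All 38 fitted differences were negative, with a median of -0.36. Tk1, thymidine kinase, had 248, 290, 248 and 246 FPKM against 443, 302, 298, 318 and 383. Ccne1, cyclin E1, had 97.9, 125, 117 and 102 FPKM against 214, 136, 136, 129 and 137, so that wildtype replicate 3 stood well above the rest. Without that library the median of the G1/S list moved to -0.17, while that of the G2/M list was -0.30. Both medians had the same sign under each scaling tried. Among the other housekeeping groups, 8 of 37 proteasome genes were lower (21.6%) and Psmd4 was higher. Of 75 nuclear respiratory chain genes, 9 were lower and none higher (12%, against 14.9% lower in the highest level bin of all genes). The proteasome and respiratory chain medians of -0.26 and -0.24 were -0.14 and -0.10 without wildtype replicate 3. None of 79 cytosolic ribosomal protein genes kept the sets apart, and without wildtype replicate 3 there were 8 higher ones. Of 74 mitochondrial ribosomal protein genes, 4 were lower (5.41%, close to the 6.86% of all genes) and 1 higher. Ribosomal protein and ferritin genes have many processed copies with which reads may be shared.

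Among regulators and receptors of erythropoiesis, Gata1, Klf1, Epor and Tfrc had negative differences with overlapping sets, while the median of all genes kept was -0.05. For comparison, 5.66% of all genes kept were higher and 6.86% lower in every shallower library. Gata1 had 184, 219, 190 and 171 FPKM against 254, 196, 206, 226 and 234, a difference of -0.28 ± 0.09 with overlapping sets. Klf1 (-0.19 ± 0.10), Epor (-0.28 ± 0.11) and Tfrc (-0.30 ± 0.12) overlapped too. Gfi1b, a transcriptional repressor required for erythroid development, was the 1 of 16 erythroid transcription factors with separate sets. It had 75.8, 94.9, 89.9 and 75.5 FPKM against 160, 123, 119, 104 and 127, a difference of -0.64 ± 0.12. Among membrane genes, 1 of 23 was higher (Mpp1, 0.49 ± 0.08) and 1 lower (Icam4, -0.42 ± 0.10), and Slc4a1, the band 3 anion exchanger, was close to level at 0.05 ± 0.10. Rbm3, a cold-inducible RNA-binding protein, had the largest difference of the lower genes named, with 71.3, 73.5, 70.7 and 62.0 FPKM against 151, 90.2, 105, 90.7 and 121.

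Markers of T cells separated the sets completely. All 15 T cell genes kept, of 20 listed, were higher in every shallower library (5.66% of all genes kept), with a median difference of 1.57. Cd3e, part of the T cell receptor complex (chr9:44998740-45009627), had 6.34, 8.39, 7.92 and 7.88 FPKM against 0.0521, 3.04, 3.10, 3.54 and 2.46. Tcf7, a T cell transcription factor, had 15.6, 14.0, 15.3 and 15.2 FPKM against 0.167, 6.69, 5.65, 5.89 and 4.91. Both genes were nearly level among the shallower libraries and lowest in wildtype replicate 3. The summed FPKM of the 17 listed T cell genes with values, kept or not, was 119 to 127 per shallower library and 9.44 to 61.1 per deeper library. In wildtype replicate 3, Cd3d, Cd3g, Cd8b1, Cd6 and Lef1 were among the markers at 0. Without that library the median difference of the list was 1.03. In such mixed RNA, fewer cells of a type and less RNA per cell cannot be told apart.

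Other leukocyte lists were higher on average in the shallower libraries, but few of their genes separated the sets. For comparison, 5.66% of all genes kept were higher in every shallower library. Of 18 genes of B cells and MHC class II, none kept the sets apart, although all had positive differences (median 1.13). The median was 0.67 without wildtype replicate 3, and without wildtype replicate 2 the sets were apart for 9 of the 18. Cd74, the class II invariant chain, had 751, 269, 361 and 509 FPKM against 49.6, 360, 462, 182 and 384. The summed FPKM of the 20 listed B cell and class II genes with values, kept or not, ran from 538 to 1546 in the shallower libraries. In the deeper ones it ran from 98.6 to 917. Of 20 macrophage genes, 2 (Mrc1 and Cd163) kept the sets apart, and the median of 1.46 was 0.85 without wildtype replicate 3. Of 12 natural killer genes, Nkg7 and Klrd1 did so, with a list median of 0.95 that was 0.19 without that library. None of 18 neutrophil genes did, with a median of 1.08. Without heterozygous replicate 2 the sets were apart for 7 macrophage, 8 natural killer and 3 neutrophil genes, without heterozygous replicate 1 for 7 macrophage genes, and without knockout replicate 3 for 5 neutrophil genes. None of 4 megakaryocyte genes kept the full sets apart, and their median was -0.12. Of 8 dendritic cell genes Ccr7 kept the sets apart, and none of 8 basophil and mast cell genes did. Several of the largest differences belonged to genes that leukocytes express, among them Lat (1.88 ± 0.45), Gimap4 (1.79 ± 0.51) and Dgka (1.78 ± 0.44).

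**Figure D3:**
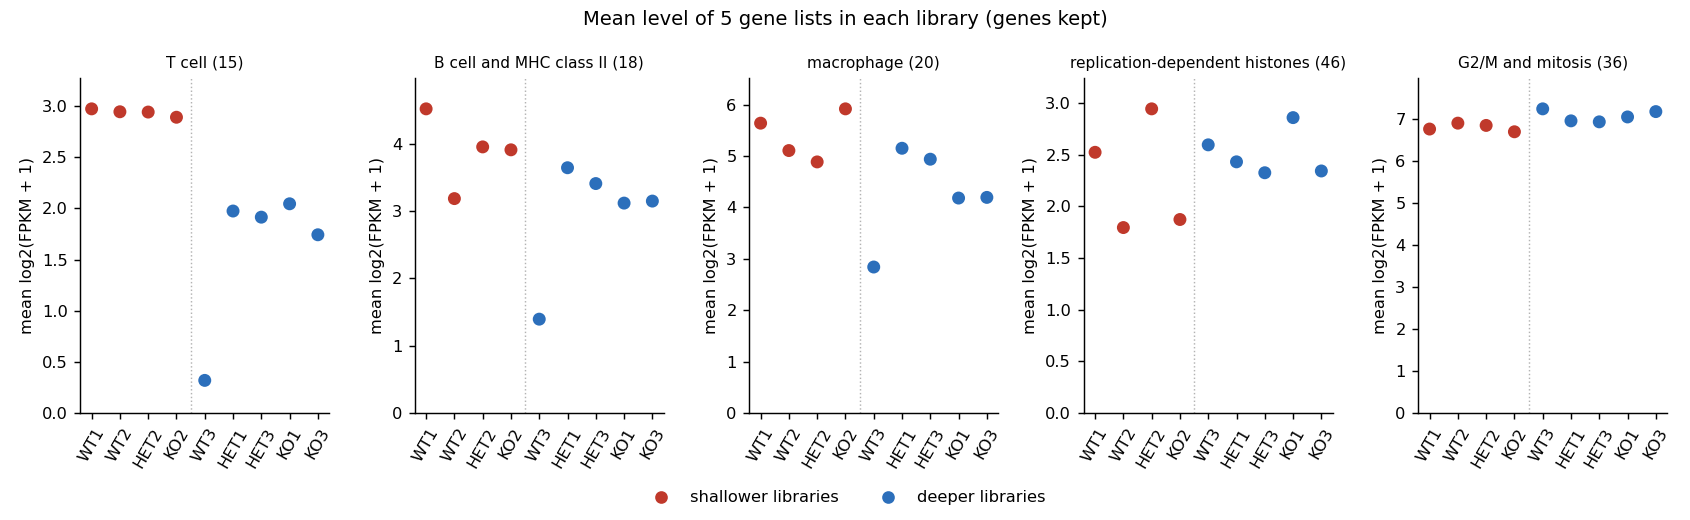
Each point is the mean log2(FPKM + 1) of a gene list in 1 library, with the number of genes kept in brackets and all axes starting at 0. The T cell list separates the 4 shallower libraries (2.89 to 2.97) from the 5 deeper ones (0.32 to 2.04), the macrophage and B cell lists overlap, and the G2/M list is slightly lower in the shallower libraries.

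Responses to outside signals were mixed. Of 30 genes of the type I interferon response, 4 (Isg20, Isg15, Rsad2 and Irf7) were higher in every shallower library (13.3%) and none was lower. For comparison, 5.66% of all 9543 genes kept were higher and 6.86% lower, which bears on each count in this paragraph. Isg20, an exonuclease gene, had 1599, 1404, 1466 and 1448 FPKM against 916, 652, 664, 807 and 818. The list's median was 0.23 with all libraries and 0.04 without wildtype replicate 3. Of 17 early erythroid progenitor genes, Mybbp1a and Myc were higher (11.8%), and the median was 0.01. Of 17 glycolytic genes, Bpgm, Gpi1 and Pfkp were higher (17.6%), with a list median of 0.57. That median was 0.37 without wildtype replicate 3. The count was 1 with scaling to total recovered reads and 8 without heterozygous replicate 3. Of 26 immediate early genes, Myc alone kept the sets apart. Their median of 0.19 turned to -0.28 without wildtype replicate 1 and to -0.37 without wildtype replicate 3. Fos stood at 252 FPKM in wildtype replicate 1 and at 30.8 to 110 in the other 8 libraries. Of the heat shock genes, Hsp90ab1 and Hspa8 were higher (14.3%) and Dnajb1 lower (7.14%), of 14. Of 24 Hedgehog pathway genes listed, 7 were kept, among them the receptor Ptch1, at 1.52 to 3.60 FPKM with a difference of -0.00 ± 0.22. The kinase Csnk1a1 was the 1 of the 7 with separate sets (-0.27 ± 0.08).

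Each genotype gave its own estimate of the difference, and no library served in more than 1 of them. The sign was the same in all 3 genotypes for 4025 genes (42.2%), 1645 higher and 2380 lower. Across the 9543 genes, the difference within the wildtype correlated with that within the knockout (Pearson's r = 0.67) and not with that within the heterozygous libraries (r = -0.02). Between heterozygous and knockout libraries r was 0.18. These coefficients are across genes, which are not independent replicates. The median size of the difference was 0.37 in the wildtype, 0.33 in the knockout and 0.16 in the heterozygous libraries. Alas2 and Bpgm did not follow that order. Alas2 differed by 0.72 in the wildtype, 1.34 in the heterozygous and 1.00 in the knockout libraries, and Bpgm by 0.97, 1.82 and 1.41. The T cell list had medians of 2.42, 1.01 and 1.00. The macrophage list had 2.67, -0.12 and 1.88, and the histone list, 46 genes in near-identical copies, had -0.39, 0.60 and -0.73. Late maturation as a whole gave 0.60, 0.21 and -0.19.

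**Figure D4:**
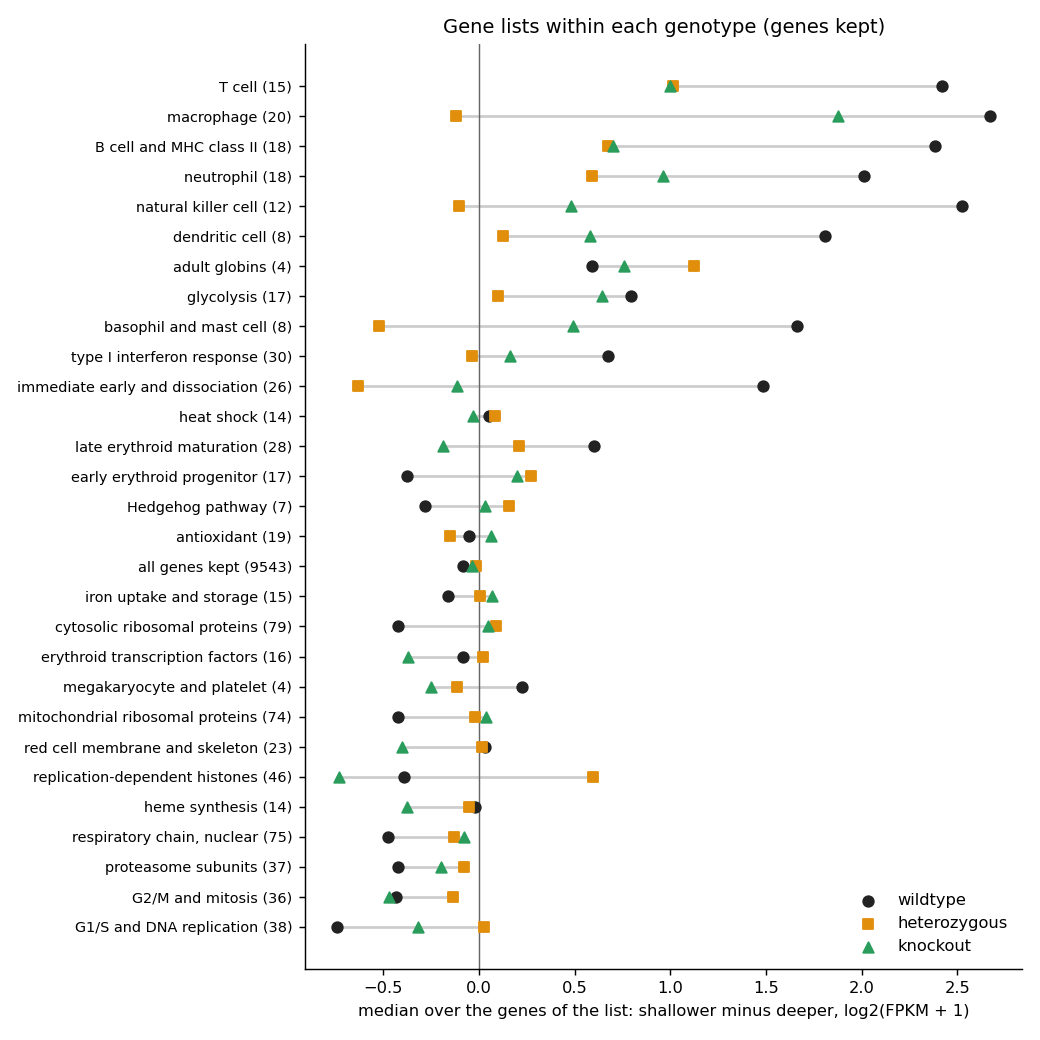
Each point is the median, over the kept genes of a list (number in brackets), of the shallower minus deeper difference in log2(FPKM + 1) within 1 genotype. The adult globins are on the positive side in all 3 genotypes at 0.59, 1.13 and 0.76, while the macrophage list lies at 2.67 in the wildtype and at -0.12 in the heterozygous libraries.

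Whether the difference depended on genotype was tested with an interaction term, a contrast the choice of sets did not use. By limma's F test, 247 of 9543 genes (2.59%) passed an adjusted p of 0.05, and 2387 had an unadjusted p below 0.05. The fit leaves 3 residual degrees of freedom, and each genotype has a set with a single library. Of the 20 macrophage genes, 14 were called. C1qa, a subunit of complement C1q made by macrophages (chr4:136895917-136898803), had 164, 108, 88.6 and 198 FPKM against 12.2, 105, 92.5, 53.1 and 51.1. It differed by 3.35 within the wildtype, -0.15 within the heterozygous and 1.91 within the knockout libraries (limma adjusted p = 0.0246). Of the natural killer genes 5 of 12 were called, of the T cell genes 3 of 15, of the B cell genes 0 of 18, and of the adult globins 0 of 4. At an unadjusted p below 0.05 there were 8 of the 18 B cell genes and all 4 adult globins, so these counts do not show that the difference was alike in the genotypes. Alas2 and Bpgm were not called (limma adjusted p = 0.108 and 0.0611). The difference was largest in the wildtype for 225 of the 247, and wildtype replicate 3 was the lowest of the 5 deeper libraries in 228 of them. Ddx3y and Eif2s3y, also called (limma adjusted p = 0.0231), differed by -4.19 and -5.15 within the knockout, where replicate 2 had almost none of their RNA. Without heterozygous replicate 1 or heterozygous replicate 3 no gene was called, without wildtype replicate 2 the count was 1040, and without wildtype replicate 3, heterozygous replicate 2 or knockout replicate 2 the term could not be fitted.

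Genotypes were then compared with the set as a term. Limma called 0 of 9543 genes (0%) between knockout and wildtype, heterozygous and wildtype, or knockout and heterozygous libraries. The lowest adjusted p values were 0.982, 0.642 and 0.999. At an unadjusted p below 0.05 there were 208, 662 and 146 genes, compared with 43, 113 and 56 when the set was left out of the model. With no difference between genotypes, a share of about 0.05 of the 9543 genes would fall below that limit. The counts of 208 and 146 lie under this share and that of 662 lies over it. All counts without the set lie under it. Voom on the recovered reads also called 0 genes and had 187, 529 and 111 at an unadjusted p below 0.05. Accounting for the set thus raised each unadjusted count, and no gene passed the adjusted threshold. The lowest p between heterozygous and wildtype belonged to Ccrl2, a chemokine-binding receptor gene, whose difference on the log2 scale was -0.86 ± 0.16 with the set as a term (limma adjusted p = 0.642) and -0.62 without it. Between knockout and heterozygous libraries it belonged to Kdm6a, an X-linked histone demethylase gene, with a difference of 0.51 ± 0.11 (limma adjusted p = 0.999). Knockout replicate 2 was the only library with almost no RNA of the Y-linked genes. The part of that library in the Kdm6a difference was not tested. Without heterozygous replicate 2, 300 genes were called between heterozygous and wildtype libraries, with a lowest adjusted p of 0.0254. In that fit every heterozygous library is a deeper one. In the median gene, the set took 30.2% of the variance between libraries with 1 degree of freedom, and genotype 15.5% with 2. The 9 libraries have 8 degrees of freedom between them. The sets were chosen on values of these same libraries and genotype was not, so these shares do not rank depth against genotype.

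The shallower libraries also differed among themselves. Wildtype replicate 1 had the highest Cd74 and Fos of all 9 libraries. Knockout replicate 2 had the highest C1qa and the lowest Tfrc. Heterozygous replicate 2 had 458 FPKM of Lars2, a mitochondrial leucyl-tRNA synthetase gene singled out after its values were seen, against 23.2 to 91.5 in the other 8. It also had 8.34 FPKM of Hist1h3b against 0.772 to 3.04. The spread of Alas2, from 6379 to 7458 FPKM, and of the T cell list was narrow by comparison.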

How the data were processed

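The authors deposited 1 table of abundance values for 20368 genes in 9 libraries. These deposited values were taken as FPKM from the values themselves, and FPKM and RPKM could not be told apart. The submitters' processing notes list TopHat, Picard, DESeq2 and mm10, with no version or role. Annotation, strand and read pairing are not stated in the sources used here. Hence overlapping and antisense genes cannot be told apart. The deposited FPKM were checked on their values: each of the 14147 genes seen in 2 or more libraries fitted whole reads to within 0.05 of a read, and the factors between libraries were those of a median-of-ratios scaling over 11276 genes. The reads so recovered gave the depths, with which the precision of low genes varies. A count of 0 allows up to 3 reads (counting error only). Positions of 20028 genes (98.3%) come from GENCODE M21 on that build, and 180 rows lacked a symbol.

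The scale was log2(FPKM + 1), which understates the differences of low genes. Limma 3.58.1 in R 4.3.3 (lmFit, eBayes with a trend) fitted genotype plus set, and genotype by set for the interaction, over all 9 libraries, with Benjamini-Hochberg adjustment over 9543 genes. For shallower against deeper libraries the fit gave values and standard errors only. On simulated data for knockout minus wildtype with the set as a term (9543 genes, 200 changed, 10 runs), limma recovered 26.6% of 1.5-fold changes, 63.8% of 2-fold, 91.8% of 4-fold and 96.0% of 8-fold changes. False calls averaged 8.9 per run. The simulated residuals were independent between genes and libraries, with no interaction. The real libraries shared deviations across genes, so these rates may not hold for them. A count model was not used, since the values are FPKM, and voom on recovered reads was run beside limma. Genes with a read at equal depth were expected values under thinning.

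The sets, the gene lists and the rule that picked the named genes were chosen with earlier results of these data known. The rule took the 12 largest non-overlapping differences in each direction with a mean of at least 10 FPKM. It added up to 3 non-overlapping members of each list (otherwise the 2 most abundant), fixed genes (Dhh, Ptch1, Gata1, Klf1, Tfrc, Alas2, Epor, Kit and the adult globins), up to 10 genes called for the interaction, and the 5 lowest p in each genotype contrast without calls. Apobec3, Fam118a and Parvg were added because an earlier account had singled them out. Fos, Mkrn1, Cd74, C1qa, Slc4a1, Mki67, Uty, Kdm5d, Lars2, Bnip3l, Map1lc3b, Ube2o, Ube2l6, Riok3, Rnf10, Ubb, Adipor1, Ccndbp1, Iscu and further members of the lists lie outside it. Some genes are not reported here. All 36 pairs of libraries differed by more than sampling noise, with a chi-square of at least 8.70 per degree of freedom. Same-numbered knockout and heterozygous libraries deviated together from their genotype means (correlations of 0.20, 0.18 and 0.41 for numbers 1, 2 and 3). No label states a pairing. In both genotypes numbers 1 and 3 are deeper and number 2 is shallower, so pairing cannot be told apart from the sets. The main fit held no term for the replicate number. Correlations were -0.57, 0.51 and 0.33 between knockout and wildtype and 0.13, 0.18 and 0.00 between heterozygous and wildtype. There the libraries numbered 1 lie in different sets. Reads were recovered and figures drawn in Python 3.11.15 (pandas 2.3.3, numpy 2.4.6, matplotlib 3.10.9).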

Additional observations from a re-analysis of the deposited data

Results flagged for a closer look

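A value is given here where 1 library lay far from the rest of its set, beyond the limit of Dixon's test, or where limma's interaction term was called. By chance alone, Dixon's test marks about 1 in 20 groups of values, a share that does not hold for the adjusted interaction calls. It was applied to 119 genes of the naming rule, 30 lists and the library measures. The rule picked some of these genes by their differences in these same data. Wildtype replicate 3 was far from the other deeper libraries in most cases. It had the fewest genes with a read (12231, and 11786 expected at equal depth) and the lowest mean log2(FPKM + 1) of the leukocyte markers (1.61). Its means of the B cell (1.39), T cell (0.32) and natural killer (0.23) lists were the lowest, and its mean of the respiratory chain list was the highest (6.59). Its FPKM were the lowest for Gimap4 (0.372), Acap1 (0.934), Tcf7 (0.167), Klrd1 (0.0864), Ccl5 (1.27) and Tbc1d10c (0.383). They were the highest for Iqgap3 (35.9), Psmc5 (107), Ndufv1 (106), Rfc3 (63.1), Ccne1 (214) and Uxt (18.7).

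The other libraries had fewer such values. Wildtype replicate 1 was far above the other shallower libraries for Hist1h2bc (87.5 FPKM), Hist1h2bg (92.4) and Apobec3 (96.8) and far below them for Fam118a (1.09). Heterozygous replicate 1 was far above the other deeper libraries for Apobec3 (103 FPKM). Heterozygous replicate 2 stood out among the shallower libraries for Rpl41 (910.6 FPKM, lowest) and Hist1h3b (8.34, highest). Wildtype replicate 2 was highest for Cd3d (10.2 FPKM), and knockout replicate 3 for Pqlc3 (25.0).

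Limma's interaction of set with genotype had an adjusted p of 0.0231 for Ddx3y, Eif2s3y, Ccl5 and Asb2 and 0.0238 for Ms4a4b. The adjusted p was 0.0246 for Anxa6, Hist1h3b, Tbc1d10c, Parvg and Gimap4. Ccl5, a chemokine gene of T and natural killer cells, differed by 5.01 within the wildtype, -0.16 within the heterozygous and 0.43 within the knockout libraries. Each genotype has a set with a single library, so a dependence on genotype cannot be told apart from the values of that library. Knockout replicate 2 had 0.41 FPKM of Ddx3y and 0.60 of Eif2s3y, the lowest of all libraries. Wildtype replicate 3 had 1.27 FPKM of Ccl5, the lowest of the deeper libraries. No explanation for these values was tested.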

How the results depend on the processing

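The count of genes higher in every shallower library was 540 in the main comparison, 253 with a minimum of 5 FPKM, 299 with a fold of at least 1.5, and 572 to 862 with 1 library left out. The count of lower genes, 655, was 1082 when scaled to total recovered reads, 1032 when adult globins were left out of that total, 10 with the fold, and 696 to 1079 with 1 library left out. The share of genes with one sign in all 3 genotypes ranged from 40.3% to 42.9% with 1 library left out. The interaction, 247 genes, called 98 after quantile normalization, 409 and 387 with the total-read scalings, 0 with every gene above 0 kept, 561 and 0 with pseudocounts of 0.25 and 4, 133 without the trend, 146 by voom, 895 at an adjusted p below 0.1, and 0 to 1040 with 1 library left out. Heterozygous minus wildtype called 0 to 300 with 1 library left out, and the other genotype contrasts 0 in every fit. Differences that changed sign were those of Fth1 (-0.18) and Blvrb (-0.24) under quantile normalization and of Pqlc3 with the replicate block (0.0405). The median of the iron list (-0.07) ranged from -0.13 to 0.11 with 1 library left out, was 0.0026 without wildtype replicate 1 and 0.11 without wildtype replicate 3 or without both, the last chosen after seeing the data. Other list medians changed sign with 1 library left out: immediate early genes (-0.28 and -0.37), cytosolic ribosomal proteins (0.07), erythroid transcription factors (0.01), histones (0.14) and basophils (-0.02). With the replicate block, the interferon (-0.11), histone (0.04) and platelet (0.22) lists did so. The antioxidant, early progenitor and Hedgehog medians, within 0.03 of 0, also changed sign. The cause of these changes was not tested. With the replicate number as a block, each genotype contrast still called 0 genes; the set difference then rests on wildtype replicate 1 alone. Depth limits the lowest genes, whose shallower libraries hold few reads.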

Other observations

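Some genes separated the libraries along lines other than depth or genotype. Apobec3, a cytidine deaminase gene that restricts retroviruses, was one of them, with 96.8 FPKM in wildtype replicate 1, 103 in heterozygous replicate 1 and 6.06 to 9.40 in the other 7 libraries, knockout replicate 1 included. Fam118a was low in the same pair of libraries, at 1.09 and 1.12 FPKM against 3.72 to 5.44 elsewhere. Apobec3 (chr15:79891659-79915906) and Fam118a (chr15:85028948-85062830) lie on the chromosome that also carries Dhh (chr15:98891152-98898540). Whether the mice of these libraries differed in origin is not given in the labels.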
